A study of Mus musculus with 6 samples.

Results

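Periplakin (Ppl), membrane progestin receptor alpha (Paqr7), the transmembrane protein gene Tmem229a, calmodulin-like 4 (Calml4), ethanolamine kinase 2 (Etnk2) and the long intergenic noncoding RNA 9030616G12Rik were examined in primary mouse hepatocytes with and without the transcription factor FOXA2. These 6 genes, of 34745 with counts, were chosen because all libraries of one group lay beyond all libraries of the other in raw counts scaled to library size. Their separation between the groups is therefore how they were selected and not a result, and their levels are described without a test. All 6 were among the 14417 genes with enough counts to enter the genome-wide fit. Ppl, Paqr7 and Tmem229a were higher in the FOXA2-deficient hepatocytes, and Calml4, Etnk2 and 9030616G12Rik were lower.

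FOXA2 is a forkhead transcription factor of the liver that binds DNA in closed chromatin and takes part in the control of bile acid, glucose and lipid metabolism. Carbon tetrachloride (CCl4) is turned by hepatocytes into a reactive radical, and repeated doses cause cell death and fibrosis. The chosen genes belong to cell biology that is seldom described in this setting: the plakin cytolinkers, which tie keratin filaments to cell junctions, the progestin and adipoQ receptor (PAQR) family of membrane receptors, the calmodulin-like light chains of unconventional myosins, and the ethanolamine branch of phospholipid synthesis.

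The 3 FOXA2f/f+CCl4 samples came from male mice with floxed Foxa2 alleles that had received the control virus AAV8-TBG-Control. The 3 FOXA2H-KO+CCl4 samples came from male mice with the same floxed alleles that had received AAV8-TBG-Cre, in which the thyroxine-binding globulin promoter restricts Cre recombinase to hepatocytes, so that other liver cells kept the gene. Both groups were 12 weeks old by their labels, received the virus 2 weeks before treatment, and were then given CCl4 at 0.25 ml/kg, 2 times a week for 4 weeks. The mice were killed on the third day after the last dose, and hepatocytes were isolated by collagenase perfusion and low-speed centrifugation. Every sample was treated, so the comparison is of fibrotic liver with and without hepatocyte FOXA2. The labels number the replicates 1, 2 and 4 in each group and say nothing of further relations between samples, so the spread between libraries may be partly technical.

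The libraries held 20983455 to 28327765 counts. Foxa2 itself was at 19.0, 13.5 and 16.4 CPM (counts scaled to the library size after trimmed mean of M-values, TMM, adjustment) in FOXA2f/f replicates 1, 2 and 4, and at 1.03, 0.761 and 1.62 CPM in FOXA2H-KO replicates 1, 2 and 4, which left 6.98% of the control mean. The groups did not overlap for Foxa2 and the exact two-sided permutation test gave p = 0.1, the smallest that 3 libraries against 3 allow. The 10 hepatocyte markers, among them albumin (Alb), summed to 117917 to 165740 CPM in FOXA2f/f and 114252 to 147357 CPM in FOXA2H-KO libraries. Markers of other liver cells were present in every library at far lower sums, so the preparations were hepatocytes with some other cells.

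Genome-wide, 1661 of the genes tested did not overlap between the groups in counts over the library total, or 11.5% of them, with 1194 higher (8.28%) and 467 lower (3.24%) in FOXA2H-KO. The direction of this split depended on the scaling. With TMM-adjusted library sizes 1514 genes did not overlap (10.5%), of which 655 were higher (4.54%) and 859 lower (5.96%), and the median of all log2 fold changes moved from 0.10 on the library size alone to -0.01. The 6 chosen genes did not overlap on either scale, which held for 811 genes in all (5.63%), 448 of them higher (3.11%) and 363 lower (2.52%). With DESeq2 size factors, another scaling of the same counts, they were separated too. The deposited FPKM values divide counts over the library total by 1 length per gene, so separation there follows from the selection. The edgeR quasi-likelihood test called 1 gene over the whole table, Foxa2 (0.00694%), with the adjusted p (Benjamini-Hochberg) below 0.05 and a change of 2-fold or more, while 745 genes (5.17%) had an unadjusted p under 0.05. It called none when any one of 5 libraries was left out, and 6 genes without FOXA2f/f replicate 2.

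Among the 1661 non-overlapping genes, the chosen genes covered a wide range of separation in counts over the library total, the values that chose them. The gap was not ranked on the TMM-adjusted scale. The nearest libraries of the opposing groups were 3.38-fold apart for 9030616G12Rik, 2.55-fold for Calml4, 2.39-fold for Tmem229a, 1.57-fold for Paqr7, 1.48-fold for Ppl and 1.18-fold for Etnk2, which put them at ranks 6, 10, 12, 81, 98 and 323 by this gap. Foxa2 stood at rank 1. Etnk2 was the gene nearest to the limit of the rule, with a lowest FOXA2f/f library of 248 and a highest FOXA2H-KO library of 209.8 CPM on the unadjusted library total. Just outside it among related genes was Nenf, a secreted heme-binding protein, with a lowest FOXA2f/f library of 7.58 and a highest FOXA2H-KO library of 7.63 CPM on the same scale.

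Upstream sequences of the 3 genes that were lower without FOXA2 are printed here because forkhead factors bind short A- and T-rich elements, and because these genes differed in whether such letters occurred next to their start sites. The RefSeq promoter windows used cover the 250 bases before each annotated start on the GRCm38.p6 build, read in the direction of transcription. They were found for 5 of the 6 genes, all but Ppl. Capitals mark matches on either strand to a forkhead core motif of 6 letters. The core was searched in 4 forms, with TGTTTA as one form, TATTTA as another, TGTTTG as the next and TATTTG as the last.
9030616G12Rik, chr10:128970947-128971196, plus strand: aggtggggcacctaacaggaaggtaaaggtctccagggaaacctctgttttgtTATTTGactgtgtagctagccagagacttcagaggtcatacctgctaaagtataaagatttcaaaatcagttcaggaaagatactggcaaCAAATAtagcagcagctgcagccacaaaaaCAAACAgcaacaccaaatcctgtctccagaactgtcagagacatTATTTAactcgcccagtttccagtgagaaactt
Calml4, chr9:62857854-62858103, plus strand: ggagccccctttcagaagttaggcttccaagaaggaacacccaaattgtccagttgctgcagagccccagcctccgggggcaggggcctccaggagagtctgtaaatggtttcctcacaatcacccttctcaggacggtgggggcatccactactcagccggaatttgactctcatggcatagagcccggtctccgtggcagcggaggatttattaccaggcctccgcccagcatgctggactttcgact
Etnk2, chr1:133363322-133363571, plus strand: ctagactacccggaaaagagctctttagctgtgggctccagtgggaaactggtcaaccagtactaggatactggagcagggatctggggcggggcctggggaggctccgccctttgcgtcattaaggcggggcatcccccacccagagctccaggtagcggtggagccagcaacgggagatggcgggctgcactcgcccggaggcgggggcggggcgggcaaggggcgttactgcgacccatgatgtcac
The window of 9030616G12Rik held 4 matches, with TATTTA at 33 to 28 bases and TATTTG at 197 to 192 bases before the start on the plus strand, and TATTTG at 107 to 102 and TGTTTG at 77 to 72 bases before it on the minus strand. The windows of Calml4 and Etnk2, and those of Paqr7 and Tmem229a, held none. At least one of these 4 forms occurred in 39.0% of the 32817 RefSeq mouse windows of this length. The longer forms, which are the same letters with a C added at the end and so contain the shorter ones, occurred in 11.9% of all windows and in none of the windows of the 5 genes. The 9030616G12Rik window was also the poorest in G and C, at 42.8% against 52.8% to 71.2% in the windows of the other 4 genes and a median of 52.4% over all windows. A match of letters is a description of the sequence and not evidence of binding.

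Ppl encodes periplakin, a cytolinker of the plakin family that connects intermediate filaments with desmosomes and the plasma membrane. It lies on chr16:5086291-5132421 (GRCm38, GENCODE M21) on the minus strand, with 22 exon blocks (ENSMUSG00000039457). Ppl was at 68.4, 74.7 and 76.2 CPM in FOXA2f/f replicates 1, 2 and 4, and at 128, 123 and 128 CPM in FOXA2H-KO replicates 1, 2 and 4. Every FOXA2H-KO library was above every FOXA2f/f library. On the unadjusted library total Ppl ran from 62.3 to 84.7 CPM in FOXA2f/f and from 126 to 144 CPM in FOXA2H-KO. After TMM adjustment the libraries within each group lay close together. The means were 73.1 ± 4.12 CPM and 126 ± 2.75 CPM (SD, n = 3 each), a 1.73-fold higher level, with a fitted log2 fold change of 0.79. With each library left out in turn it stayed between 0.76 and 0.82.

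Paqr7 encodes membrane progestin receptor alpha, a multi-pass membrane receptor that responds to progesterone at the cell surface. The gene lies on chr4:134496697-134510235 on the plus strand (ENSMUSG00000037348). Its levels were 29.7, 25.4 and 25.7 CPM in FOXA2f/f replicates 1, 2 and 4, and 44.7, 45.5 and 45.1 CPM in FOXA2H-KO replicates 1, 2 and 4. On the unadjusted library total Paqr7 was at 27.0, 22.1 and 28.6 CPM in FOXA2f/f replicates 1, 2 and 4. The FOXA2H-KO values there were 50.2, 46.4 and 44.8 CPM. After TMM adjustment the FOXA2H-KO libraries were almost level with each other, and FOXA2f/f replicate 1 stood above the other control libraries. The adjusted means were 26.9 ± 2.40 CPM and 45.1 ± 0.415 CPM (SD, n = 3 each), or 1.67-fold higher in FOXA2H-KO. The fitted log2 fold change was 0.74, with a range of 0.71 to 0.83 when single libraries were left out, the highest being without FOXA2f/f replicate 1.

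Tmem229a encodes a predicted multi-pass membrane protein of little known function, from a single exon on chr6:24951141-24956297 on the minus strand (ENSMUSG00000048022). It was counted 91, 46 and 94 times in FOXA2f/f replicates 1, 2 and 4, and 206, 208 and 203 times in FOXA2H-KO replicates 1, 2 and 4. In CPM this was 3.91, 2.52 and 2.99 against 7.57, 8.34 and 9.38, so that even the lowest FOXA2H-KO library stood well above the highest control. The means of 3.14 ± 0.705 CPM and 8.43 ± 0.909 CPM (SD, n = 3 each) differed 2.69-fold, with a log2 fold change of 1.42. The spread between control libraries was wider here than for Ppl and Paqr7, and the log2 fold change ran from 1.30 without FOXA2f/f replicate 2 to 1.62 without FOXA2f/f replicate 1.

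Calml4 encodes a small protein related to calmodulin that serves as a light chain of myosin 7b at the tips of brush-border microvilli in the intestine. It lies on chr9:62858080-62875921 on the plus strand (ENSMUSG00000032246). The gene was counted 129, 96 and 147 times in FOXA2f/f replicates 1, 2 and 4, and 36, 44 and 15 times in FOXA2H-KO replicates 1, 2 and 4. The corresponding levels were 5.54, 5.26 and 4.67 CPM against 1.32, 1.76 and 0.693 CPM. All FOXA2H-KO libraries were low, replicate 4 the most so, and the groups did not overlap. FOXA2H-KO hepatocytes retained 24.4% of the control mean, with 5.16 ± 0.444 CPM in FOXA2f/f and 1.26 ± 0.538 CPM in FOXA2H-KO (SD, n = 3 each). The log2 fold change was -2.02 and lay between -2.34 without FOXA2H-KO replicate 2 and -1.73 without FOXA2H-KO replicate 4. Within the body of Calml4 the annotation places a pseudogene on the other strand, Gm10653, which shared no exon bases with it and had 7 counts over all 6 libraries.

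Etnk2 encodes ethanolamine kinase 2, which phosphorylates ethanolamine in the opening step of phosphatidylethanolamine synthesis and is abundant in liver. It lies on chr1:133363572-133380336 on the plus strand, with 8 exon blocks (ENSMUSG00000070644). Its levels were 310.0, 285 and 301 CPM in FOXA2f/f replicates 1, 2 and 4, and 187, 175 and 177 CPM in FOXA2H-KO replicates 1, 2 and 4. On the unadjusted library total Etnk2 ran from 248 to 335 CPM in FOXA2f/f and from 176 to 209.8 CPM in FOXA2H-KO. After TMM adjustment the libraries of each group lay close around their means of 299 ± 12.8 CPM and 179.5 ± 6.24 CPM (SD, n = 3 each). FOXA2H-KO hepatocytes held 60.1% of the control level, a log2 fold change of -0.73 that ranged from -0.77 to -0.69 over the fits without 1 library.

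9030616G12Rik is annotated as a lincRNA of 2 exons and 644 bases on chr10:128971197-128978115, plus strand (ENSMUSG00000097691), and no function is assigned to it here. It was counted 25, 38 and 43 times in FOXA2f/f replicates 1, 2 and 4, and 7, 4 and 2 times in FOXA2H-KO replicates 1, 2 and 4. The levels were 1.07, 2.08 and 1.37 CPM in the control and 0.257, 0.160 and 0.0924 CPM in the FOXA2H-KO libraries, without overlap. This was the largest relative difference among the 6 genes and rested on the fewest counts. FOXA2H-KO libraries held 11.3% of the control mean, 1.51 ± 0.519 CPM against 0.170 ± 0.0829 CPM (SD, n = 3 each), with a log2 fold change of -3.07. Summed over libraries, 106 control counts stood against 13 in FOXA2H-KO. The log2 fold change was -3.50 without FOXA2H-KO replicate 1 and -2.78 without FOXA2f/f replicate 2.

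**Figure D1:**
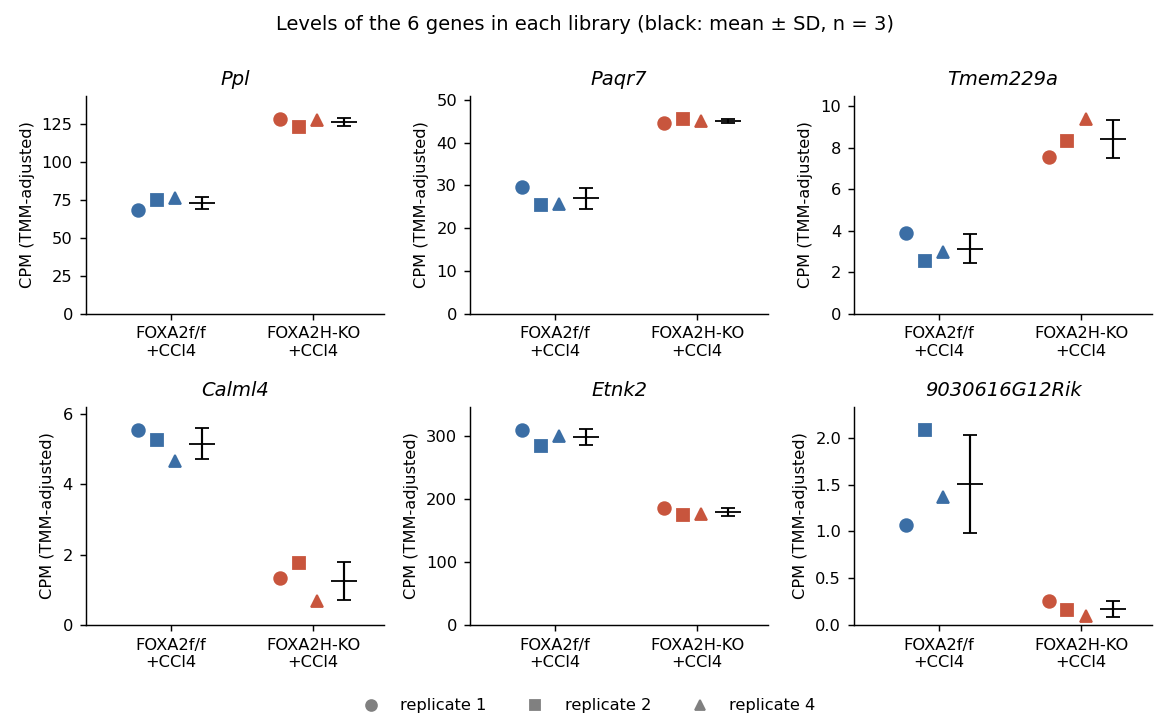
CPM (vertical axis from 0, counts scaled to TMM-adjusted library size) of Ppl, Paqr7, Tmem229a, Calml4, Etnk2 and 9030616G12Rik in each library of FOXA2f/f+CCl4 (blue) and FOXA2H-KO+CCl4 (red), with marker shapes for replicates 1, 2 and 4 and black bars for mean ± SD (n = 3). In each panel the red and blue points are separate, from 123 to 128 CPM against 68.4 to 76.2 CPM for Ppl to 0.0924 to 0.257 CPM against 1.07 to 2.08 CPM for 9030616G12Rik.

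Levels can be compared between genes only per length of transcript. In the deposited FPKM (fragments per kilobase of gene length, scaled to library size), the mean levels in FOXA2f/f were 42.6 ± 6.47 for Etnk2, 11.3 ± 1.95 for Ppl, 5.73 ± 0.372 for Calml4, 3.13 ± 0.407 for Paqr7, 2.23 ± 0.657 for 9030616G12Rik and 0.586 ± 0.141 for Tmem229a (SD, n = 3 each). The ranges of Paqr7 and 9030616G12Rik overlapped, and the other neighbours in this order did not. In FOXA2H-KO the FPKM means were 27.8 ± 2.81 for Etnk2, 21.1 ± 1.66 for Ppl, 5.69 ± 0.338 for Paqr7, 1.70 ± 0.0913 for Tmem229a, 1.54 ± 0.664 for Calml4 and 0.282 ± 0.155 for 9030616G12Rik, and there the ranges of Tmem229a and Calml4 overlapped. Etnk2 and Ppl thus led the order in both groups, and Calml4 stood above Paqr7 in the control and below it in FOXA2H-KO.

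The place of Calml4 in this order depended on the length assumed for it. The deposited FPKM of Calml4 corresponded to a length of 861 bases, against 3642 exon bases in GENCODE M21, and on the M21 lengths Calml4 had a length-scaled level of 1.35 in FOXA2f/f and 0.363 in FOXA2H-KO, below Paqr7 in both groups (6.08 and 11.1). The implied length of Paqr7 was 8281 bases against 4259, and that of Etnk2 6765 against 4566, whereas Tmem229a (5157) and 9030616G12Rik (644) had the same length in both sources. The length affects the order of the genes and not the comparison of a gene between groups.

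**Figure D2:**
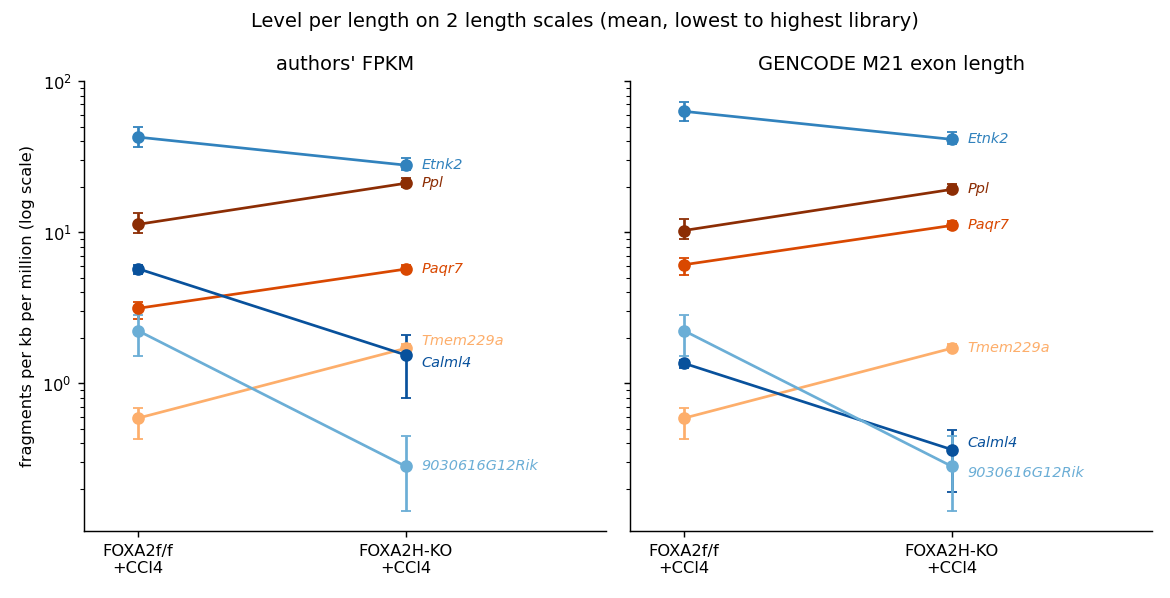
Level per length (vertical log axis, fragments per kilobase, scaled to library size as for FPKM) of the 6 genes in FOXA2f/f+CCl4 and FOXA2H-KO+CCl4, as deposited FPKM on the left and with GENCODE M21 exon lengths on the right. Points are means of 3 libraries and bars run from the lowest to the highest library. Etnk2 was highest on both scales, while Calml4 began at 5.73 on the left and at 1.35 on the right.

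In rank among the genes tested, ordered by mean FPKM, Etnk2 lay at the 94.9th percentile in FOXA2f/f and the 92.2nd in FOXA2H-KO, so it remained one of the abundant transcripts of these cells. Ppl was at the 83.3rd and 89.9th percentiles in FOXA2f/f and FOXA2H-KO. The rank of 9030616G12Rik went from the 48.0th to the 10.6th percentile and that of Calml4 from the 71.1st to the 37.1st, whereas Tmem229a went from the 20.9th to the 39.4th and Paqr7 from the 56.7th to the 69.5th. These ranks rest on the lengths behind the deposited FPKM. For Calml4 (861 bases against 3642 in GENCODE M21) and Paqr7 (8281 against 4259) they would differ on the M21 lengths, on which ranks were not computed.

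Whether relatives and partners of these genes differed between the groups in the same way was examined with lists drawn up by function. Of 55 listed genes 47 were tested, and the edgeR quasi-likelihood test called none of them, with a smallest Benjamini-Hochberg adjusted p of 0.771. An unadjusted p under 0.05 was found for 6 of the 47, against 5.17% of all genes tested. DESeq2 also called none, against 73 of the 22551 genes it tested (0.324%). The groups did not overlap on both scales for 6 of the 47, against 5.63% of all genes tested. Of the 47 log2 fold changes 17 were above 0 and 30 below, with a median of -0.05, but with the library size alone 31 were above 0 and 16 below, so no common direction can be read from these lists.

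Ppl was set beside its family and the proteins it works with. Among 13 plakins, desmosomal proteins and hepatocyte keratins 4 were above 0 and 9 below, with a median log2 fold change of -0.07 (9 above and 4 below on the library size alone). The closest relative, envoplakin (Evpl), which can pair with periplakin, was at 0.823 ± 0.160 CPM in FOXA2f/f and 1.15 ± 0.692 CPM in FOXA2H-KO (SD, n = 3 each) and overlapped between groups. Desmoplakin (Dsp) had 66.5 ± 14.6 and 47.9 ± 14.4 CPM, and the keratin genes Krt8 and Krt18, whose filaments plakins bind, had log2 fold changes of -0.02 and -0.10. Plakophilin 3 (Pkp3), an armadillo protein of desmosomal plaques, was the 1 of these 13 whose groups did not overlap on both scales, where 5.63% of all genes tested did not. It was at 2.02, 2.47 and 1.52 CPM in FOXA2f/f and 1.51, 0.882 and 0.601 CPM in FOXA2H-KO replicates 1, 2 and 4. Pkp3 had 216 counts over all libraries. On the library total its groups almost touched, with a lowest FOXA2f/f library of 1.6945 and a highest FOXA2H-KO library of 1.6936 CPM. Its log2 fold change of -0.98 (SE 0.41) did not pass the edgeR quasi-likelihood test (adjusted p = 0.941).

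Of the other membrane progestin receptors, Paqr8 and Paqr9 had enough counts to test, and they lay on opposite sides of 0. Paqr8 was at 0.773, 1.04 and 1.62 CPM in FOXA2f/f and 1.73, 1.72 and 1.94 CPM in FOXA2H-KO replicates 1, 2 and 4, with a log2 fold change of 0.63 and an adjusted p of 0.96 by the edgeR quasi-likelihood test. Paqr5, Paqr6 and the nuclear progesterone receptor Pgr had too few counts to test. Over the 11 tested genes of the PAQR family and of progesterone binding, 4 were above 0 and 7 below, with a median of -0.14. Paqr9 was at 52.6, 63.8 and 43.0 CPM in FOXA2f/f and 30.0, 30.0 and 41.5 CPM in FOXA2H-KO replicates 1, 2 and 4. Its groups did not overlap on both scales, and its log2 fold change was -0.65 (SE 0.20, adjusted p = 0.771 by the edgeR quasi-likelihood test). Mmd, another member of the family, did not overlap either, at 91.5 ± 15.9 and 119 ± 17.5 CPM (SD, n = 3 each) and a log2 fold change of 0.37. Paqr9 and Mmd were the 2 of these 11 genes separated on both scales, where 5.63% of all genes tested were. Pgrmc1, a heme-binding membrane protein associated with progesterone responses, was abundant and overlapped between groups, with 903 ± 283 and 773 ± 54.7 CPM.

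Calml4 was compared with other calmodulin genes and with its partners in the intermicrovillar adhesion complex. Calm2 and Calm3 had log2 fold changes of -0.08 and 0.02, both with overlapping groups. Myo7b, the myosin to which Calml4 binds, had the opposite direction to Calml4, at 1.55, 1.21 and 0.667 CPM in FOXA2f/f and 2.32, 2.04 and 3.60 CPM in FOXA2H-KO replicates 1, 2 and 4. The groups did not overlap on both scales, which held for 1 of the 7 tested genes of this list, against 5.63% of all genes tested. The log2 fold change of Myo7b, 1.23 (SE 0.40), had an adjusted p of 0.815 in the edgeR quasi-likelihood test. The scaffold Anks4b and the protocadherins Cdhr2 and Cdhr5 had log2 fold changes of -0.48, -0.81 and -0.10 with overlapping groups, and Ush1c was too low to test. Over the 7 tested genes of this list 2 were above 0 and 5 below (median -0.08), or 5 above and 2 below on the library size alone.

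Etnk2 was set beside the other enzymes of its pathway, of which Pcyt2 and Pemt had lower levels in FOXA2H-KO without passing the test. Its paralog Etnk1, which catalyses the same reaction in most tissues, was at 106 ± 8.57 CPM in FOXA2f/f and 103 ± 3.04 CPM in FOXA2H-KO (SD, n = 3 each). Pcyt2, the enzyme of the next step from phosphoethanolamine to CDP-ethanolamine, was at 264, 307 and 247 CPM in FOXA2f/f and 204, 195 and 193 CPM in FOXA2H-KO replicates 1, 2 and 4. Pemt, which methylates phosphatidylethanolamine to phosphatidylcholine in hepatocytes, was at 255, 301 and 196 CPM in FOXA2f/f and 146, 180 and 162 CPM in FOXA2H-KO replicates 1, 2 and 4. Neither overlapped between groups on both scales, which held for 2 of the 15 listed genes, against 5.63% of all genes tested. Their log2 fold changes were -0.47 (SE 0.14) and -0.62 (SE 0.19), with adjusted p of 0.791 and 0.787 in the edgeR quasi-likelihood test. Chka went the other way, with a log2 fold change of 0.25 and groups that did not overlap on the library total alone. The final enzymes of the branch, Selenoi and Cept1, had -0.06 and 0.06. Of the 15 genes of ethanolamine and choline phospholipid synthesis, all of them tested, 6 were above 0 and 9 below with a median of -0.04, and 11 were above and 4 below on the library size alone.

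The family of Tmem229a was represented by its paralog Tmem229b. It was at 4.45 ± 2.71 CPM in FOXA2f/f and 5.61 ± 0.706 CPM in FOXA2H-KO (SD, n = 3 each), with overlapping groups and a log2 fold change of 0.32 (SE 0.41, adjusted p = 0.983 by the edgeR quasi-likelihood test).

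**Figure D3:**
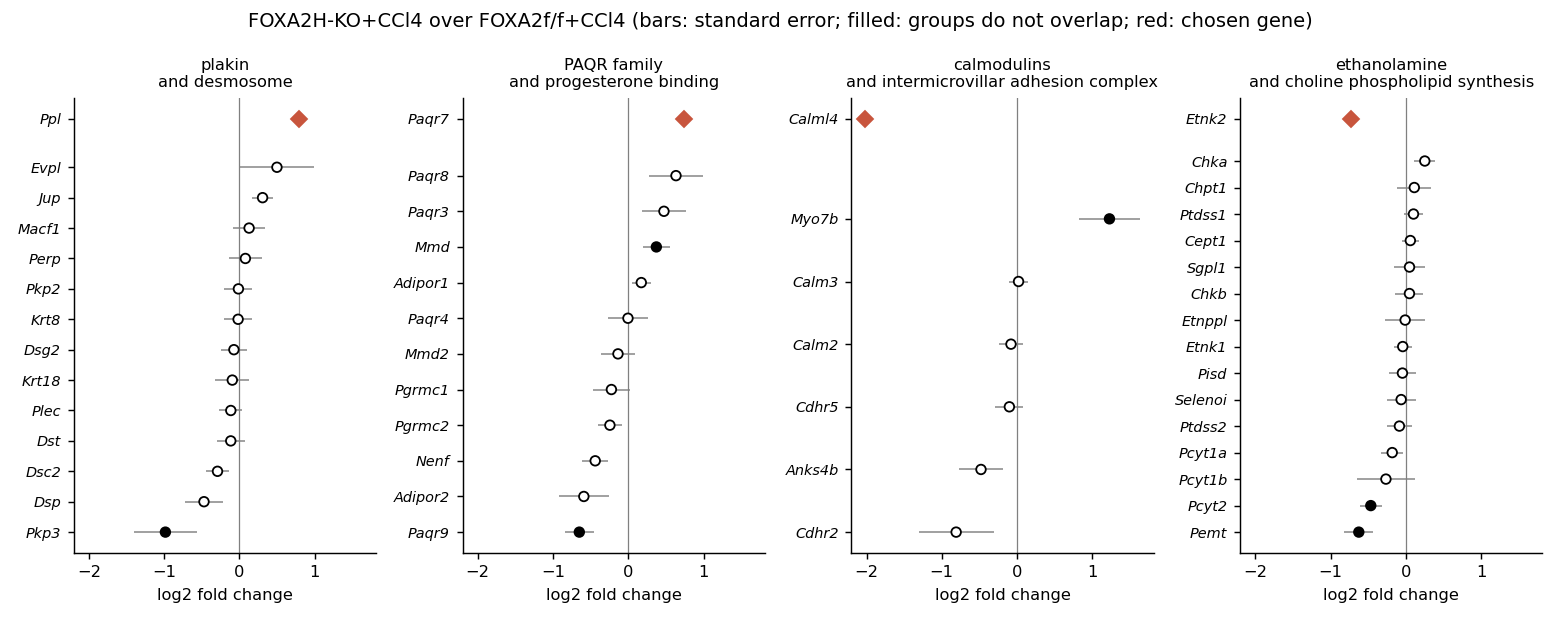
Log2 fold change (horizontal axis, FOXA2H-KO+CCl4 over FOXA2f/f+CCl4) of genes in 4 lists of relatives, with bars for the standard error, filled points where the groups did not overlap on both scales, and a red diamond for the chosen gene, drawn without an error since no test applies. Ppl (0.79), Paqr7 (0.74), Calml4 (-2.02) and Etnk2 (-0.73) were selected for separate groups, so their distance from the relatives is no finding. The relatives were listed by function, with earlier results of these data known. Myo7b (1.23) and Calml4 lie on opposite sides of 0, and Pcyt2 and Pemt lie below 0 as Etnk2 does.

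Genes next to the chosen genes were examined to see whether the differences extended along the chromosome. The nearest protein-coding gene on each side gave 12 neighbours, of which 7 were tested. The edgeR quasi-likelihood test called none, with a smallest adjusted p of 0.689, and 1 of the 7 had an unadjusted p under 0.05, against 5.17% of all genes tested. DESeq2 called none.

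Ubn1, a histone chaperone subunit, ends 2 bases from Ppl on the opposite strand, with both genes transcribed towards each other. The sources do not say that the libraries or the counting kept strand, so reads at this border cannot be told apart by strand. Ubn1 was at 47.8 ± 1.95 CPM in FOXA2f/f and 43.7 ± 3.56 CPM in FOXA2H-KO (SD, n = 3 each), and its log2 fold change was -0.13 where that of Ppl was 0.79. Around Paqr7, Stmn1 and Aunip had log2 fold changes of 0.20 and 0.09, and around Calml4, Cln6 and Pias1 had -0.09 and 0.07. Sox13, beside Etnk2, had -0.21. Both neighbours of Tmem229a, Hyal5 and Gpr37, were too low to test.

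Mettl7b, which encodes a lipid-droplet-associated methyltransferase, lies 10209 bases from 9030616G12Rik on the opposite strand and was the 1 of 7 tested neighbours whose groups did not overlap on both scales, where 5.63% of all genes tested did not. It was at 242, 451 and 258 CPM in FOXA2f/f and 139, 178 and 174 CPM in FOXA2H-KO replicates 1, 2 and 4, with FOXA2f/f replicate 2 far above the other libraries. The log2 fold change was -0.95 (SE 0.26, adjusted p = 0.689 by the edgeR quasi-likelihood test), in the same direction as the -3.07 of 9030616G12Rik. FOXA2f/f replicate 2 was the highest library for both genes. Without it, Mettl7b had -0.61 and 9030616G12Rik -2.78. The gene on the other side, Olfr9, had no counts.

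**Figure D4:**
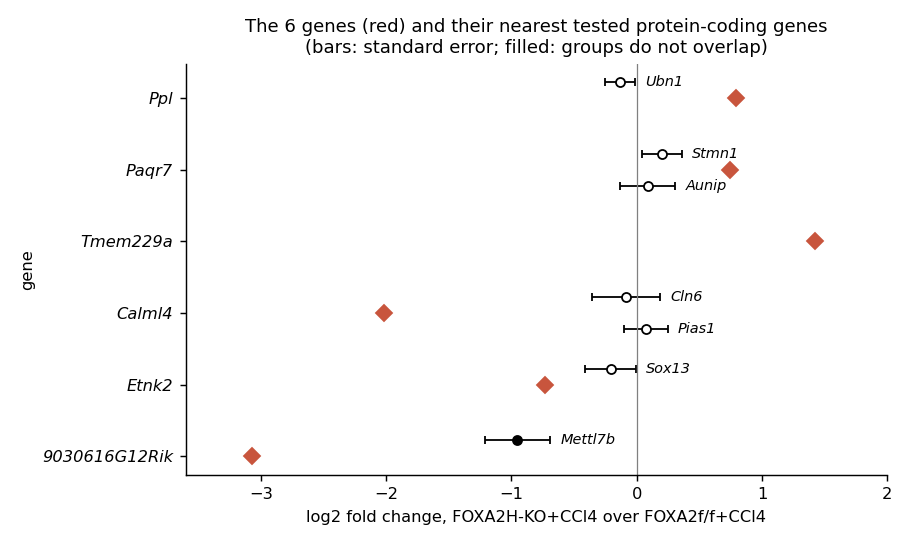
Log2 fold change (horizontal axis, FOXA2H-KO+CCl4 over FOXA2f/f+CCl4) of the 6 chosen genes as red diamonds and of their 7 tested nearest protein-coding neighbours as circles with standard errors, filled where the groups did not overlap on both scales. Among the neighbours only Mettl7b (-0.95) is filled, and the other 6 lie between -0.21 and 0.20.

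Markers of other liver cells differed in level between the libraries, and the chosen genes can be set beside them. In bulk RNA fewer cells of a type and less RNA per cell cannot be told apart. The 6 cholangiocyte markers summed to 367, 174 and 231 CPM in FOXA2f/f replicates 1, 2 and 4. In FOXA2H-KO replicates 1, 2 and 4 they summed to 707, 252 and 588 CPM. Spp1 made up most of each sum, at 353, 163 and 222 CPM in FOXA2f/f and 686, 241 and 573 CPM in FOXA2H-KO. The groups overlapped for Spp1. All 5 tested markers were above 0 (median log2 fold change 0.91), but Sox9 (0.17) and Epcam (0.72) overlapped between groups as Spp1 did. The edgeR quasi-likelihood test called none of these 5, and neither did DESeq2, which called 0.324% of the genes it tested. An unadjusted p under 0.05 was found for 2 of them (Krt7 and Spp1), against 5.17% of all genes tested. On both scales 2 (Krt7 and Krt19) did not overlap between groups, against 5.63% of all genes tested. The chosen genes include 3 higher and 3 lower genes, so markers of either direction match some of them and a shared direction is not informative. Krt7 and Krt19 were low, at means of 0.957 and 1.18 CPM in FOXA2f/f and 1.97 and 2.22 CPM in FOXA2H-KO. By PanCK staining of CCl4-treated livers, the paper reported no significant influence of hepatocyte FOXA2 on the bile duct response. That is protein in tissue and not RNA of isolated hepatocytes. Neutrophil markers summed to 97.3, 5.86 and 47.1 CPM in FOXA2f/f and 6.65, 13.5 and 6.38 CPM in FOXA2H-KO replicates 1, 2 and 4. Of these markers 5 of 5 tested were below 0 (median log2 fold change -3.20). All 5 had an unadjusted p under 0.05, against 5.17% of all genes tested. The edgeR quasi-likelihood test called none, and DESeq2 called 1 (Elane), against 0.324% of the genes it tested. The summed levels overlapped between groups.

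Stellate cell and fibroblast markers summed to 777, 661 and 1802 CPM in FOXA2f/f and 1792, 1074 and 1122 CPM in FOXA2H-KO replicates 1, 2 and 4, with 6 of 6 above 0. Macrophage markers summed to 283 to 1285 CPM in FOXA2f/f and 638 to 915 CPM in FOXA2H-KO, endothelial markers to 143 to 522 and 243 to 318 CPM, and lymphocyte markers to 18.6 to 80.3 and 41.3 to 71.6 CPM. The ranges of the groups overlapped for each of these sums, none of the markers was at 0 in all libraries, and Ly6g, Cd3e and Cd3g were at 0 in some. The part of these cells in the levels of the 6 genes was not tested.

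Genes with the most similar profile to each chosen gene were found by the root mean square (RMS) difference of log2(CPM + 0.5) over the 6 libraries, after centring each gene on its mean, among genes with a mean of at least 1 CPM. The resemblance includes the group difference by which the genes were chosen, so it is given as a description. Ppl and Paqr7 were among each other's 3 nearest genes, with an RMS difference of 0.123 against medians over all genes of 0.465 and 0.447. Nearest to Ppl were Map3k13 (0.110), a kinase of the JNK pathway, and Nck2 (0.114), an adaptor of tyrosine kinase signalling. Nearest to Paqr7 were Tdo2 (0.107), the hepatocyte enzyme that starts tryptophan breakdown, and Tnfaip8l1 (0.115). Tdo2 was at 1299 ± 68.4 CPM in FOXA2f/f and 2172 ± 248 CPM in FOXA2H-KO (SD, n = 3 each), a far more abundant transcript than Paqr7 with a like relative difference.

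Etnk2 had the closest matches of all 6 genes, with Amigo3 at an RMS difference of 0.0774, the deubiquitinase Usp36 at 0.0844 and the carboxylesterase Ces3b at 0.111, against a median of 0.422. Nearest to Tmem229a were Rmnd1 (0.194), needed for mitochondrial translation, Gm15622 (0.204) and 9530077C05Rik (0.207), with a median of 0.717. Calml4 lay nearest to Cib3 (0.314), which encodes another small calcium-binding protein, and then to Raet1e (0.343) and the asparaginase Aspg (0.352), with a median of 0.931. For 9030616G12Rik the nearest were the serine protease Prss8 (0.234), the matricellular protein gene Smoc2 (0.250) and Aifm3 (0.264), with a median of 0.835. All 18 named neighbours in profile remained among the named ones when counts were scaled to the library total, and 14 did when a mean of at least 5 CPM was required.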

How the data were processed

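RNA of primary hepatocytes was sequenced as paired-end poly(A) libraries, 1 per sample. Per the labels, the submitters' processing notes name CASAVA 1.8, TopHat2 2.1.0, HTSeq, edgeR and the mm10 build, and the annotation is not given in the sources used here. The authors deposited whole-number counts per Ensembl gene without normalization, and FPKM values in which each gene has 1 length in all libraries. A symbol was given for 34267 genes, and the other 478 kept their identifiers. A series-wide table held the same values as the 6 per-sample ones and was not used.

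Counts were fitted in R 4.3.3 with edgeR 4.0.16 (TMM, filterByExpr, quasi-likelihood test, no replicate block, Benjamini-Hochberg adjustment over 14417 genes), and limma 3.58.1 and DESeq2 1.42.0 served as alternatives. Calls needed an adjusted p under 0.05 and a fold change of at least 2. Scripts were tested on simulated data. The 6 genes and the lists were chosen with earlier results of these data known. Named were the 6 genes, Foxa2, listed relatives and pathway genes that passed the filter and had a mean of at least 1 CPM or separate groups, the nearest protein-coding gene on each side, and the 3 genes most like each. One listed gene that this rule gives is not reported here. Replicate numbers were not taken as pairs. Alternatives were other scalings, other filters, limma on log2(FPKM + 1) for genes averaging at least 1 FPKM, the block, and each library left out.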

Additional observations from a re-analysis of the deposited data

How the results depend on the processing

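On the library size alone Ppl moved from 0.79 to 0.90, Paqr7 from 0.74 to 0.86 and Etnk2 from -0.73 to -0.62. The limma fit on log2(FPKM + 1) differs in 2 ways, since FPKM are scaled to the library total without TMM and the added 1 shrinks low genes. Its values were 0.86 for Ppl, 0.77 for Tmem229a, -1.44 for Calml4, -0.59 for Etnk2 and -1.32 for 9030616G12Rik. Over the fits without 1 library Paqr7 ran from 0.71 to 0.83 and 9030616G12Rik from -3.50 to -2.78. With at least 10 counts required in every library 9030616G12Rik was not fitted. The count of genes called over the whole table was 1 by the edgeR quasi-likelihood test. It became 0 on the library size alone, 73 with DESeq2 (26 higher and 47 lower, of 22551 genes tested) and 2 without a filter. It was 0 with limma on log2(FPKM + 1), and 254 at an unadjusted p under 0.05 with a fold of at least 2 (120 higher, 134 lower). The cause of these differences was not tested. Leaving out 1 library gave 0 to 6 calls, with 6 without FOXA2f/f replicate 2 and 0 without any of the other 5 in turn. Same-numbered samples did not deviate together (correlations of -0.09, 0.05 and -0.24 for numbers 1, 2 and 4). Of the 6 samples only FOXA2H-KO replicate 2 correlated best with its own number. With 3 libraries per group these correlations cannot decide whether same-numbered samples share more than a number. The replicate block gave 0 calls, and log2 fold changes of 0.79 for Ppl, 0.75 for Paqr7, 1.44 for Tmem229a, -2.10 for Calml4, -0.73 for Etnk2 and -3.08 for 9030616G12Rik. Relatives and neighbours had 0 calls in each of 13 alternative fits. These fits called only 0 to 73 genes over the whole table, so no absence of change can be read from this. Depth limits 9030616G12Rik most, with 2 to 7 counts per FOXA2H-KO library.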
